A study of Mus musculus with 3 samples.

Results

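Fibronectin and 8 further secreted matrix genes, most of them matricellular, were followed through loss and regain of attachment in cultured cardiac myofibroblasts, which are activated fibroblasts that contract and lay down matrix after injury to the heart. The 9 genes were Fn1, Tnc, Tnxb, Thbs1, Thbs2, Spp1, Postn, Tgfbi and Sparc. They were chosen by name, through the RefSeq transcript that each array probe carries, and 11 of the 27235 probes with a gene symbol belonged to them. All 9 were among the 15393 genes that had a probe clearly above background on 1 or more of the arrays. Each of the 11 probes was well above background on all 3 arrays, so no member was lost to a filter.

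Matricellular proteins are secreted into the extracellular matrix without being load-bearing parts of it, and they alter how cells attach to, sense and remodel the matrix around them. Fibronectin is a fibril-forming adhesive glycoprotein that cells assemble through integrins, and many matricellular proteins bind to it, to collagens or to the same integrins. In the heart most of these genes are expressed at low levels in adult life and are induced in the granulation tissue and border zone after infarction, where activated fibroblasts are a major source and macrophages another for some of them.

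The cells came from male C57BL/6J mice whose left anterior descending coronary artery was permanently ligated and whose hearts were taken 3 days later. The labels give the age as 8 weeks in one field and as 10 weeks at ligation in another. Cells that attached to plastic overnight and lacked CD45, a leukocyte surface protein, were taken as myofibroblasts by the study. Adherent cells were grown on plastic plates, non-adherent cells were moved from such plates into suspension, and re-adherent cells were put back on plastic after suspension. The study reported a large fall in cell number during suspension, which it put down to the death of detached cells. The non-adherent and re-adherent arrays therefore measured the cells that remained. No genetic change or drug separated the groups. Each state was 1 pool of RNA from several hearts on 1 single-colour Agilent array, so no spread between cultures is known, no test was possible, and the ± values below cover technical error within the arrays only. The states followed each other in time, so culture time and state cannot be told apart.

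The 3 arrays lay on 1 slide. Of 59305 non-control spots, between 31994 and 35538 were well above background, and the 75th percentile of the signal, to which each array was scaled, lay between 541 and 697 intensity units. Signals below are processed intensities before scaling, and differences are log2 values after it, so a difference of 2 is 4-fold. A probe's intensity depends on its sequence as well as on its transcript, so intensities were compared between arrays and not between genes. The 4 myofibroblast markers Acta2, Tagln, Cnn1 and Myl9 were well above background on every array, and their summed signal was 1624, 18.8 and 1618 times the array's 75th percentile in the adherent, non-adherent and re-adherent states. The 10 fibroblast markers summed to 1118, 895 and 843. Macrophage markers summed to 274, 1696 and 542 over the 15 of 17 that entered, each well above background on all 3 arrays. Ptprc, which encodes CD45, gave 355, 2441 and 532 intensity units. The 10 endothelial markers summed to 37.5, 42.2 and 39.6. In bulk RNA fewer cells of a type and less RNA per cell cannot be told apart.

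Upstream sequence of 4 of the 5 members that differed over 4-fold in suspension is shown because they moved in opposite directions, Tnc down and Tgfbi, Spp1 and Tnxb up. The 250 bases before the transcript start are from RefSeq on GRCm38.p6, written 5′ to 3′ on the strand of the gene. Capitals mark matches to the motifs searched on both strands, which were the TATA box letters TATAAA, the ETS-type core GAGGAA, the AP-1 site TGANTCA, the TEAD-type site GGAATG and, by name, the CArG box of serum response factor. The Tnc window is chr4:64047016-64047265 on the minus strand, before the outermost of its starts. The Tgfbi window is chr13:56609336-56609585, the Spp1 window chr5:104434861-104435110 and the Tnxb window chr17:34670285-34670534, all on the plus strand. The Tnxb window lies inside the gene as annotated, before an internal start, and is the only one of Tnxb in the table used.
Tnc: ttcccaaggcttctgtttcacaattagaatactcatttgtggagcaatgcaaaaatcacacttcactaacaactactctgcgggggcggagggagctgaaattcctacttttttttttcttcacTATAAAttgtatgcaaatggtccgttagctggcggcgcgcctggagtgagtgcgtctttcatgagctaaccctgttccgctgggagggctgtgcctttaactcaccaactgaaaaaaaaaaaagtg
Tgfbi: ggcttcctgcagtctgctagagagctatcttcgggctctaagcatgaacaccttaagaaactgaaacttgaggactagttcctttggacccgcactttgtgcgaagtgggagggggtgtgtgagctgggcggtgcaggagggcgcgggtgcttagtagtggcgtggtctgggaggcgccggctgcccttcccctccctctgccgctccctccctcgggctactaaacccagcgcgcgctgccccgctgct
Spp1: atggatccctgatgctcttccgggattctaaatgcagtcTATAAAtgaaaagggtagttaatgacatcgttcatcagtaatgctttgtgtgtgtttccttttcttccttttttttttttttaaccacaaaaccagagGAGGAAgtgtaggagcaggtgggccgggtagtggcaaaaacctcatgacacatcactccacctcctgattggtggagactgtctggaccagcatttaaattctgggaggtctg
Tnxb: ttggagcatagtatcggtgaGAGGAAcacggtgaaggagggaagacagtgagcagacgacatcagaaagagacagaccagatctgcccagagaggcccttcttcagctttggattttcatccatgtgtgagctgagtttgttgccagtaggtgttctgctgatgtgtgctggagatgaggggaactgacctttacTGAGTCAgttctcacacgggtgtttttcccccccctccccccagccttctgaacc

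Positions are counted from the transcript start to the first base of a match. The Tnc window held TATAAA at -126. The Spp1 window held TATAAA at -211 and GAGGAA at -113, and the Tnxb window held GAGGAA at -230 and TGAGTCA, a form of TGANTCA, at -55. The Tgfbi window held none of the motifs. Over 10 windows of 7 members, 5 held TATAAA, 3 GAGGAA, 1 TGANTCA and 0 GGAATG or a CArG box. Of these windows 2, both of Tnc, overlap each other and share 1 TATAAA site, so the 5 count that site more than once. The Tnc window not printed here also held GAGGAA at -44. No window was available for Fn1 or Thbs1. Among all 32851 RefSeq windows of 250 bases the shares were 12.4% for TATAAA, 23.3% for GAGGAA, 6.75% for TGANTCA, 12.6% for GGAATG and 1.47% for the CArG box. These matches describe letters in the windows and were not tied to binding by any measurement here.

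**Figure D1:**
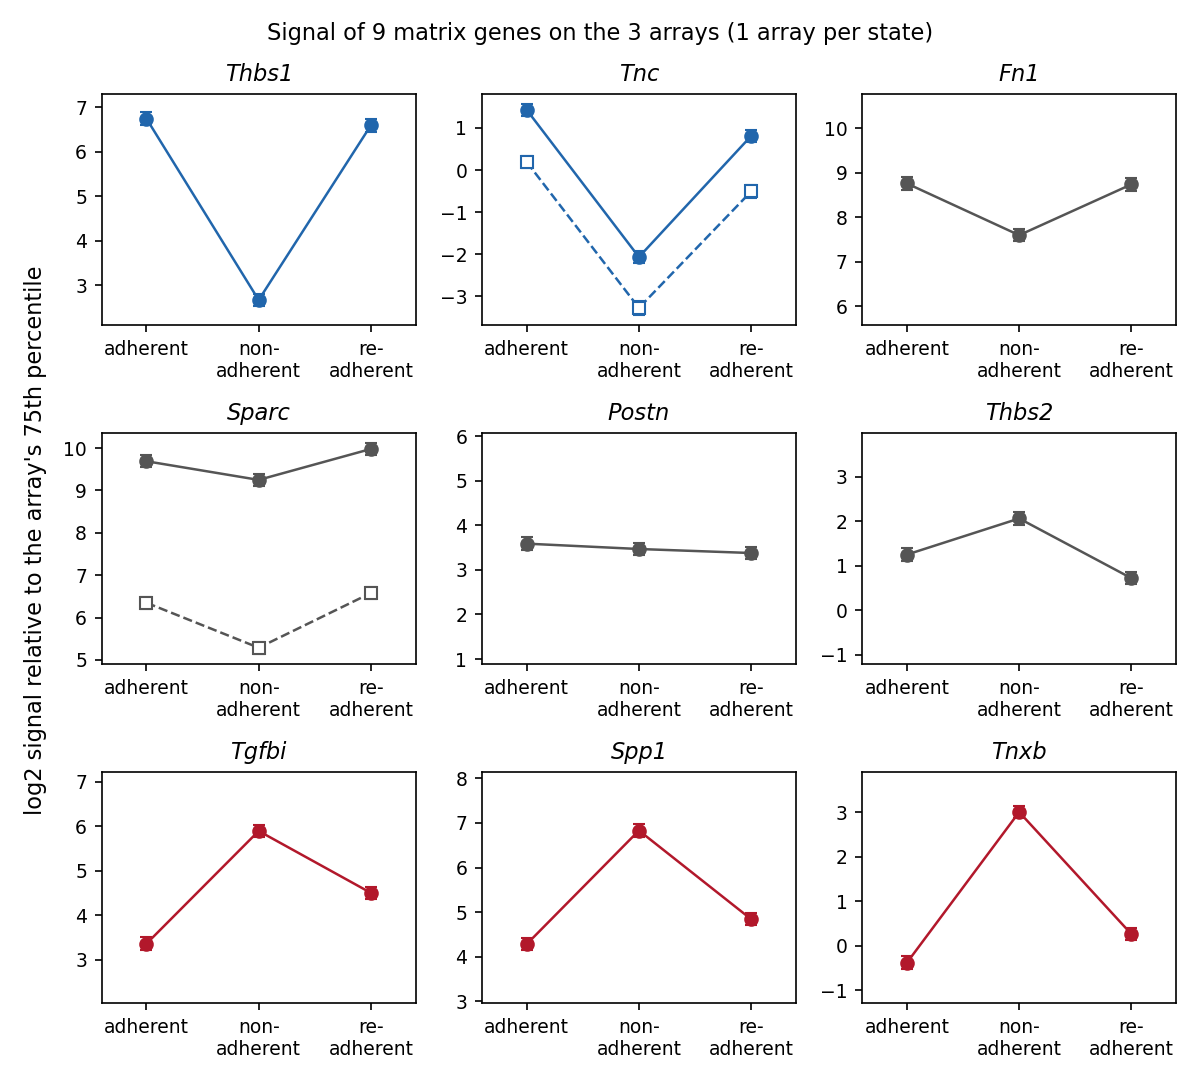
Signal of each of the 9 genes on each of the 3 arrays, as log2 relative to the array's 75th percentile, 1 array per state, with bars for the software's technical error and open squares for the second probe of Tnc and of Sparc. Blue genes were over 4-fold lower in suspension, red genes over 4-fold higher and grey genes within 4-fold, and every panel spans the same number of log2 units.

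The members did not move as a block when attachment was lost. Thbs1 and Tnc were over 4-fold lower in suspension, Tnxb, Spp1 and Tgfbi were over 4-fold higher, and the other 4 members lay within 4-fold. Their median log2 difference was -0.12, beside -0.07 over all 15393 genes, but it ran from -4.07 to 3.38, so the extremes moved 174-fold apart. The background was 5.34% of all genes lower and 7.61% higher in suspension by over 4-fold, against 2 and 3 of the 9 members. At 2-fold, 3 members were lower and 3 higher, against 14.7% and 17.2% of all genes.

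Thbs1 encodes thrombospondin-1, a trimeric glycoprotein that can activate latent TGF-beta and binds CD36 and CD47. Its signal was 69529 on the adherent, 4440.5 on the non-adherent and 52102 on the re-adherent array. Only the non-adherent array was low. Thbs1 was 16.8-fold lower in suspension (log2 difference -4.07 ± 0.20) and 15.1-fold higher on re-adhesion (3.92 ± 0.20), and the re-adherent array differed from the adherent by -0.15 ± 0.20. Of all genes, 155 were further down in suspension and 254 further up on re-adhesion.

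Tnc encodes tenascin-C, a hexameric protein of healing and developing tissue that modulates attachment to fibronectin. Its brighter probe gave 1755, 166 and 948, in the order adherent, non-adherent, re-adherent that holds for the signals below. The non-adherent array was again the low one, and the re-adherent array stayed below the adherent. The log2 difference was -3.50 ± 0.21 in suspension, 11.3-fold lower, then 2.87 ± 0.21 on re-adhesion, 7.33-fold higher, and -0.62 ± 0.20 between re-adherent and adherent cells. A second Tnc probe, with signals of 744, 71.6 and 380.0, gave -3.47, 2.77 and -0.70, so both probes had the same order of arrays. With the normexp background correction the differences of the brighter probe were -2.88 and 2.30.

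Fn1, the fibronectin gene, gave 281608, 134788 and 231918. The non-adherent array was the lowest. Fn1 was 2.24-fold lower in suspension (-1.16 ± 0.20) and 2.21-fold higher on re-adhesion (1.15 ± 0.20), with -0.01 ± 0.20 between the attached states. With quantile normalisation the steps were -0.65 and 0.33, both within 2-fold, and the attached states differed by -0.32. With spike-in scaling the latter was -0.45.

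Sparc encodes a collagen-binding glycoprotein involved in fibril assembly. Its brighter probe gave 536938, 423564 and 547715, and its other probe gave 53136, 27239 and 51759.7. Both probes were lowest in suspension, by different amounts. The brighter probe, which represents the gene here, stood at -0.44 ± 0.20 in suspension and at 0.73 ± 0.20 after re-adhesion. For the other probe these values were -1.06 and 1.29. The raw signal of the brighter probe stood at 72.7%, 57.6% and 71.1% of the scanner's saturation value, against 5.83%, 2.95% and 5.51% for the other. The part of this in the disagreement between the probes was not tested. Spots around the brighter probe on the slide had a median difference in suspension of -0.40, close to its own, but 0.29 on re-adhesion, beside its 0.73. Around the other probe the medians were -0.29 and 0.27, beside its -1.06 and 1.29.

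Postn encodes periostin, a fasciclin-domain protein widely used as a marker of activated cardiac fibroblasts. Its 1 probe, named by 1 of 6 annotated Postn transcripts, gave 7849, 7715 and 5620.3, and after scaling no array stood apart. The differences were -0.12 ± 0.20 in suspension, -0.09 ± 0.20 on re-adhesion and -0.22 ± 0.20 between the attached states, none larger than 2 technical errors. With spike-in scaling the last of these was -0.65, and with no scaling the last pair stood at -0.48 and re-adhesion at -0.46. The 4 contractile myofibroblast markers had a median of -6.72 in suspension and 6.61 on re-adhesion. By western blot the study reported that periostin protein was nearly absent in suspension and came back after re-plating. The values here are of RNA, so the measures differ.

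Thbs2, the paralogue of Thbs1 that also binds CD36 and CD47 and limits vessel growth, gave 1551, 2914 and 889.8. Here the non-adherent array was the highest and the re-adherent array the lowest. The difference was 0.81 ± 0.20 in suspension, 1.76-fold higher, then -1.35 ± 0.20 on re-adhesion, 2.54-fold lower, leaving the re-adherent array at -0.54 ± 0.20 against the adherent.

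Tgfbi encodes TGF-beta-induced protein, a fasciclin-domain relative of periostin that fibroblasts and macrophages can both secrete. It gave 6699.7, 41261 and 12227. The non-adherent array was high and the re-adherent array stayed above the adherent. Tgfbi was 5.75-fold higher in suspension (2.52 ± 0.20), 2.62-fold lower on re-adhesion (-1.39 ± 0.20) and still 2.19-fold higher in re-adherent than in adherent cells (1.13 ± 0.20). This last difference was within 2-fold with quantile normalisation (0.96), no scaling (0.87), the authors' values (0.96) and spike-in scaling (0.70).

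Spp1 encodes osteopontin, an acidic integrin- and CD44-binding protein made by activated macrophages as well as by fibroblasts. It gave 12652, 79062 and 15547. Only the non-adherent array was high. Spp1 was 5.84-fold higher in suspension (2.55 ± 0.20) and 3.95-fold lower on re-adhesion (-1.98 ± 0.20), just inside 4-fold. The re-adherent array was 1.48-fold above the adherent (0.56 ± 0.20).

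Tnxb encodes tenascin-X, a collagen-associated tenascin of loose connective tissue. It gave 501, 5570.1 and 648, with the non-adherent array far above the others. Tnxb was 10.4-fold higher in suspension (3.38 ± 0.20) and 6.68-fold lower on re-adhesion (-2.74 ± 0.20), and the re-adherent array lay 0.64 ± 0.20 above the adherent. Of all genes, 221 were further up in suspension and 405 further down on re-adhesion.

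Most macrophage markers moved in the same direction as these 3 genes. Of the 15 that entered, 13 were over 4-fold higher in suspension, with a median difference of 2.68 and a range from -0.84 to 3.58, and their median was -1.58 on re-adhesion and 1.32 between re-adherent and adherent cells. Ptprc differed by 2.68, -1.83 and 0.85 in the same pairs. On re-adhesion 13 of these markers were lower and 2 higher, with a range from -3.28 to 1.95. The 2 were Itgam (-0.84 in suspension and 0.68 on re-adhesion) and Cx3cr1, which was higher in both steps (2.67 and 1.95). Of the other 2 markers of the list, Cd68 had no named probe and Cd163 was well above background on no array, and no marker that entered was at 0. The endothelial median was 1.18 in suspension and -2.67 on re-adhesion, the directions that Thbs2 also took. The 10 endothelial markers ran from -1.39 to 3.18 in suspension and from -6.22 to 1.72 on re-adhesion. Eng (-1.39 and 1.72) and Kdr (-0.35 and 0.74) went the other way. On re-adhesion 8 of the 10 were well above background on both arrays. The mural median was 0.70 and -2.26, but only 3 and 2 of the 6 markers were well above background on both arrays of the pair. With normexp the mural median on re-adhesion was -0.72. The fibroblast markers Lum (3.56 and -6.41) and Dcn (1.69 and -3.20) took the directions of Thbs2 too, while the median of the 10 fibroblast markers was -0.63 and 0.28. Of these 10 markers, 7 were lower and 3 higher in suspension, and 4 were lower and 6 higher on re-adhesion. Thy1 (-3.50 and 3.27) and Tcf21 (-1.75 and 1.89) were among those that went the other way. The part of any of these cell types in the values of Tgfbi, Spp1, Tnxb and Thbs2 was not tested.

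On re-adhesion the members other than Postn had the opposite sign to that in suspension, and Postn was slightly negative in both. The share of all genes that reversed sign was not counted, so the reversal is not given as a trait of these members. Tnc and Thbs1 were over 4-fold higher than in suspension and Tnxb over 4-fold lower, against a background of 5.70% of genes higher and 6.05% lower. At 2-fold, 3 members were higher (Fn1, Tnc, Thbs1) and 4 lower (Thbs2, Spp1, Tnxb, Tgfbi), against 15.6% and 16.3%. The 9 members had a median of -0.09, beside 0.08 over all genes, and ran from -2.74 to 3.92. The 2 steps share the non-adherent array, so an error on that array enters both with opposite signs and their mirror image is no separate observation.

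**Figure D2:**
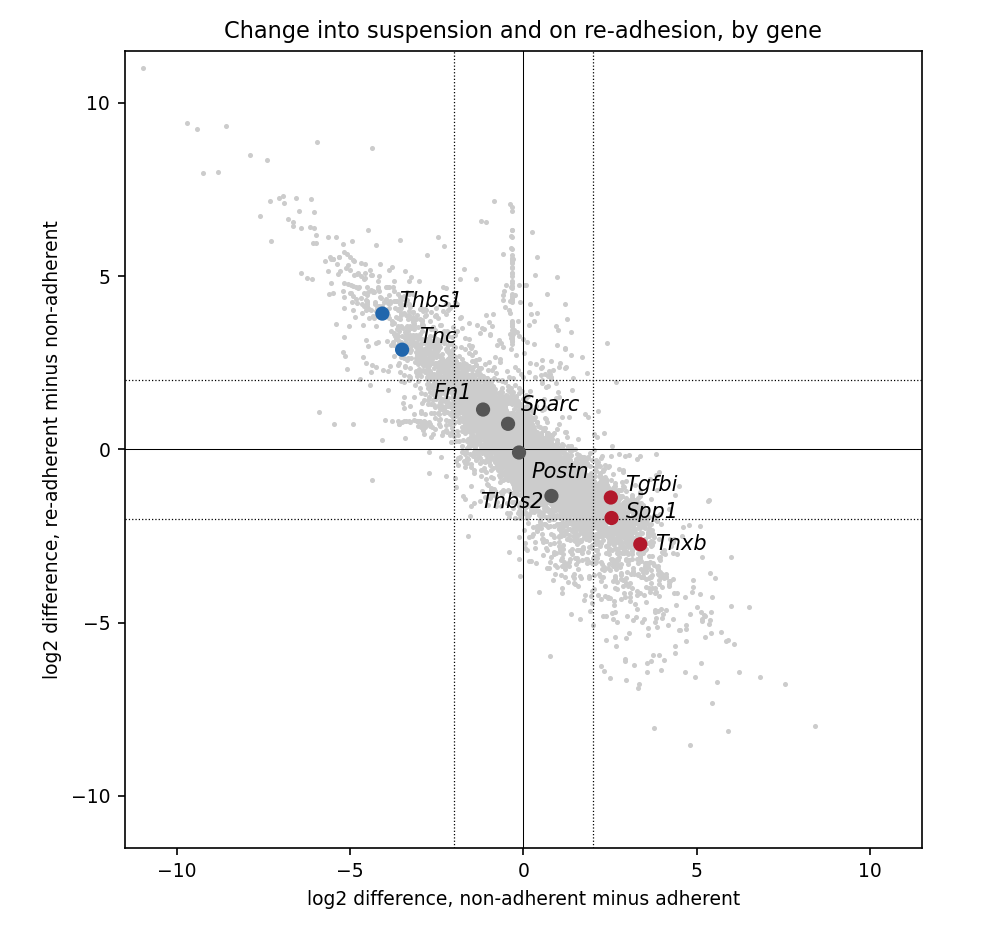
Log2 difference of non-adherent minus adherent (horizontal) against re-adherent minus non-adherent (vertical) for each of 15393 genes (light grey) and the 9 members (named), with dotted lines at 4-fold and the non-adherent array in both axes. Thbs1 and Tnc lie at the upper left, Tnxb, Spp1 and Tgfbi at the lower right, and Postn lies near the centre at -0.12 and -0.09.

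The attached states were the closest pair. Between re-adherent and adherent cells 0 of the 9 members passed 4-fold downwards and 0 upwards, where 1.29% and 1.36% of all genes did. At 2-fold the counts were 0 lower and 1 higher, Tgfbi, against 4.90% and 4.84%, but Tgfbi was within 2-fold under 4 other scalings and Tnc was past it with spike-in scaling (-1.06). The members had a median of -0.01, beside 0.06 over all genes, and their extremes, Tnc at -0.62 and Tgfbi at 1.13, were 3.38-fold apart. Fn1, Thbs1, Sparc and Postn differed by less than 2 technical errors at this scaling. With spike-in scaling Fn1 was at -0.45, Thbs1 at -0.59 and Postn at -0.65, past that size.

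**Figure D3:**
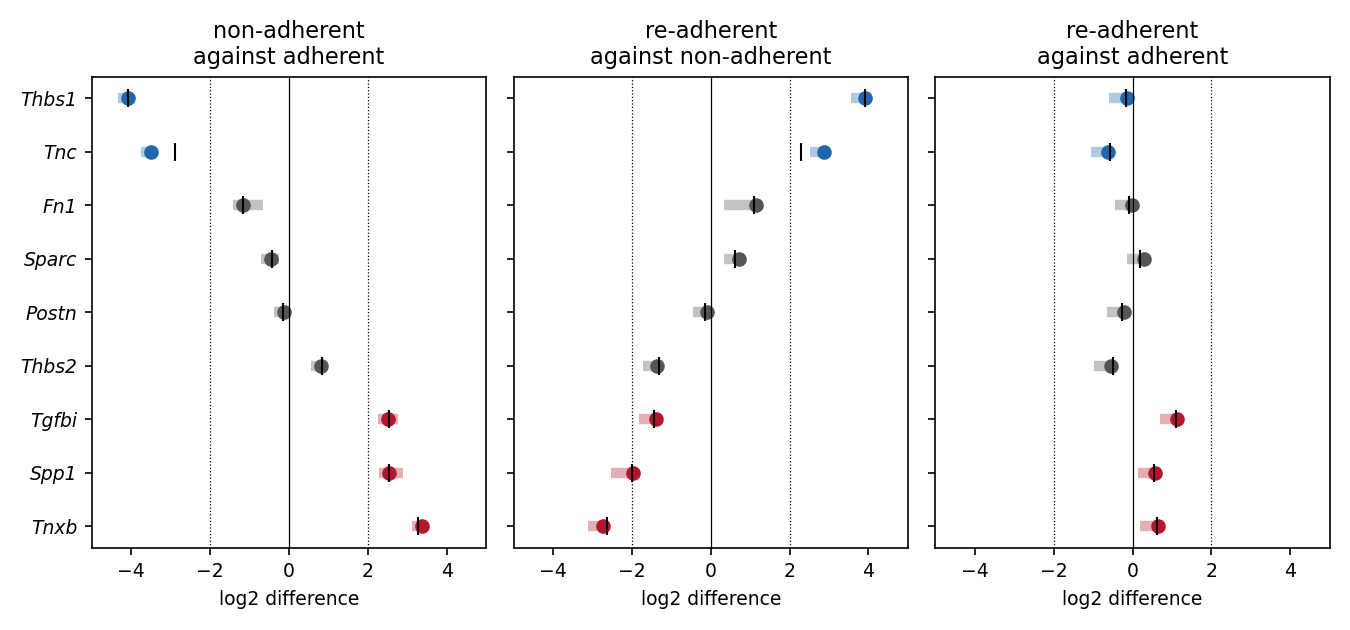
Log2 difference of the 9 members in each pair of arrays, with points for the values in the text, pale bars spanning the other scalings of the arrays, black ticks for the normexp background correction and dotted lines at 4-fold. The 5 members past 4-fold in suspension stay past it under every scaling shown, and no member passes it between the attached states.

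Members of the same family moved apart. Thbs1 and Thbs2 differed in suspension by -4.88 ± 0.29 on the log2 scale, a 29.4-fold change in their ratio, and on re-adhesion by 5.26 ± 0.29. For the tenascins, Tnc against Tnxb, the ratio changed 117-fold in suspension (-6.87 ± 0.29) and 49.0-fold back on re-adhesion (5.61 ± 0.29), the widest gap of the pairs compared in suspension. Of the fasciclin-domain pair, Tgfbi moved against Postn by 2.65 ± 0.29 in suspension and -1.30 ± 0.29 on re-adhesion. Between re-adherent and adherent cells the gaps were smaller, at 0.39 for the thrombospondins, -1.26 for the tenascins and 1.35 for Tgfbi against Postn.

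Sparcl1, the closest relative of Sparc and known as hevin, gave 1239, 20657 and 193. It was highest in suspension and lowest on the re-adherent array, at 3.96 ± 0.20 in suspension and -6.38 ± 0.21 on re-adhesion, so Sparc moved against it by -4.40 ± 0.29 and 7.11 ± 0.29. Thbs3, a pentameric thrombospondin, was 0.39 in suspension and -2.34 on re-adhesion. Thbs4, another, was -1.60 in suspension. Its re-adherent signal did not clear background, and was at least 4.22-fold lower than the adherent one.

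Among 26 further matricellular and related genes, 21 entered. For the 4-fold counts of this list and those below, 5.34% of all genes were lower and 7.61% higher in suspension. The background was 6.05% lower and 5.70% higher on re-adhesion, and 1.29% and 1.36% between the attached states. In suspension 6 were lower and 3 higher by over 4-fold, with a median of -1.21 beside -0.07 over all genes. Among the lower ones were the CCN genes Ccn1 at -4.50, Ccn2 (connective tissue growth factor) at -4.10 and Ccn4 at -3.77. Sparcl1, the fibulin gene Fbln1 at 3.73 and Comp, a pentameric thrombospondin of cartilage and tendon, at 2.70 were the 3 higher ones.

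On re-adhesion 7 of these 21 were over 4-fold higher and 5 lower, with a median of 1.21. With no scaling or the authors' values 5 were higher, and with quantile normalisation the median was 0.56. Ccn4 stood at 4.68, Ccn2 at 4.35 and Ccn1 at 4.19, and Comp stood at -4.04 and Fbln1 at -4.01. Thbs4 is counted among the 5 lower ones by its measured value of -2.52, while its bound allows only at least 1.39-fold lower. Thbs1 and Tnc thus lay on the same side as these CCN genes, and Tnxb on the side of Sparcl1, Fbln1 and Comp. Between re-adherent and adherent cells 2 of the 21 were over 4-fold lower, Thbs4 and Sparcl1 (-2.41), and 0 higher, with a median of -0.29. The lower count was 1 with normexp and 5 with spike-in scaling.

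Of 25 receptor genes 24 entered, and their median was -0.79 in suspension and 0.26 on re-adhesion, the latter turning to -0.10 with no scaling, -0.01 with the authors' values and -0.00 with quantile normalisation. In suspension 2 were over 4-fold lower (1 under normexp), the collagen-binding integrin subunits Itga11 (-2.29) and Itga1 (-2.25). The 3 over 4-fold higher were the scavenger receptor Stab1 (3.52), the thrombospondin receptor Cd36 (2.87) and the leukocyte and fibronectin-binding subunit Itga4 (2.43). On re-adhesion Itgb8, whose integrin binds latent TGF-beta, was the 1 gene over 4-fold higher (3.30), with 0 under normexp, and Cd36 (-2.83), Stab1 (-2.60) and Itgb3 (-2.19) were over 4-fold lower.

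Some receptors known to pair with single members are given whatever their fold. Itga5 and Itgb1, which form the classical fibronectin receptor, stood at -1.55 and -1.35 when attachment was lost and at 1.16 and 1.28 on re-adhesion, beside -1.16 and 1.15 for Fn1. Cd44, which binds osteopontin, differed by -0.80 and 1.14 where Spp1 differed by 2.55 and -1.98, so Spp1 and this receptor moved in opposite directions. Of the integrin subunit genes, Itgb3 (1.24 and -2.19) and Itga4 (2.43 and -1.05) moved with Spp1. Itga9 (0.01 and -0.28) moved little, and Itgav, given next, moved against Spp1. Cd47, a receptor of both thrombospondins, differed by 0.82 and -0.49, and Itgav, a subunit shared by receptors of fibronectin, osteopontin and periostin, by -0.86 and 1.27. Between re-adherent and adherent cells Itgb8 was the 1 receptor gene over 4-fold higher (2.35), with 0 under normexp and 0 with spike-in scaling. The 1 over 4-fold lower was Itga2, whose re-adherent signal did not clear background and was at least 1.52-fold lower.

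**Figure D4:**
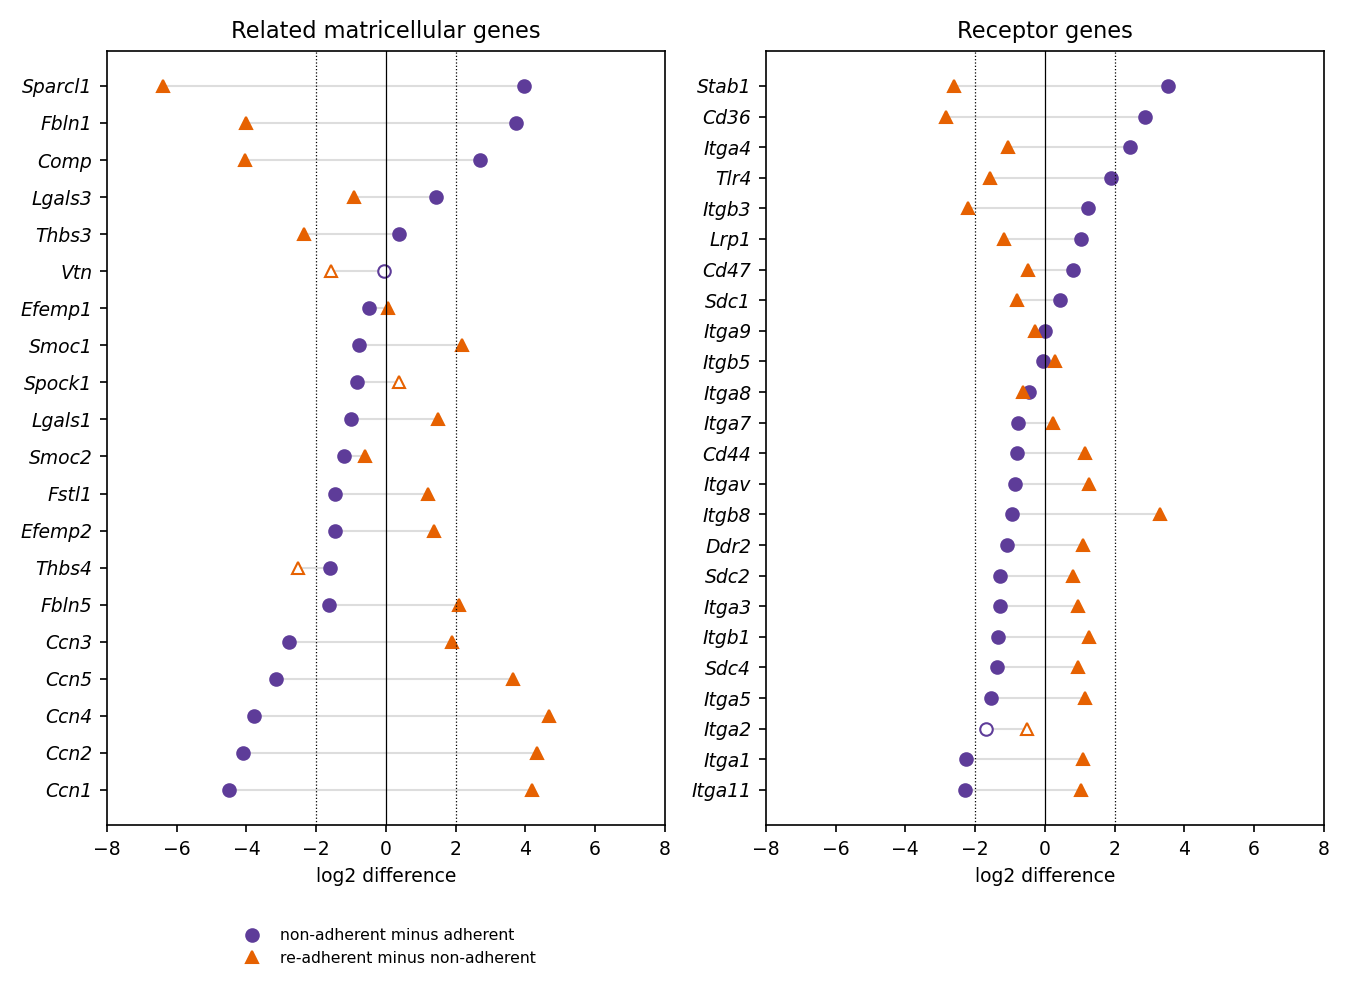
Log2 difference in suspension (circles) and on re-adhesion (triangles) for 20 related matricellular genes (left) and 24 receptor genes (right), sorted by the value in suspension, with open symbols for genes not well above background on an array of the pair and dotted lines at 4-fold. Values run from -6.38 to 4.68 for the related genes and from -2.83 to 3.52 for the receptors.

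Of 21 genes of collagens, crosslinkers and matrix proteases that act with the members, 20 entered. Their median was 0.45 in suspension and -0.83 on re-adhesion, beside -0.07 and 0.08 over all genes. In suspension 2 were over 4-fold lower, the crosslinking enzyme gene Lox (-4.51) and Ltbp1 (-2.45), which encodes a latent TGF-beta binding protein that is deposited on fibronectin. The gelatinase gene Mmp2 (2.49) was the 1 higher. The higher count was 4 with quantile normalisation, 3 with no scaling or the authors' values and 2 with median scaling. The lower count was 3 with normexp or spike-in scaling. On re-adhesion Lox (4.46), Ltbp1 (2.43) and Fbln2 (2.27) were over 4-fold higher, 2 genes with quantile normalisation or no scaling. By measured values 6 were over 4-fold lower, among them Col5a3 (-3.87), Mmp3 (-3.66) and Dcn (-3.20). The 6 include Mmp9, whose re-adherent signal did not clear background and for which only at least 3.75-fold lower can be said. Between re-adherent and adherent cells 2 were counted over 4-fold lower, Col5a3 (-2.42) and again Mmp9, which was at least 1.62-fold lower. Col1a1, a main fibrillar collagen gene, stood at -0.70 in suspension and 0.44 on re-adhesion, far smaller values than those of Thbs1 or Tnc.

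Genes of TGF-beta signalling, which induces several of the members, did not all move in the same direction. All 17 entered, with a median of -0.43 in suspension and 0.26 on re-adhesion, the latter turning to -0.10 with no scaling and -0.01 with the authors' values. In suspension Ltbp1, Lrrc32 (-2.40), which anchors latent TGF-beta, and the inhibitory Smad7 (-2.18) were over 4-fold lower. The ligand gene Tgfb1 was over 4-fold higher (2.05), a call that neither normexp nor spike-in scaling gave. This 1 higher gene of 17 is near the share of all genes. On re-adhesion Ltbp1 was the 1 gene over 4-fold higher and Ltbp4 (-2.16) the 1 lower, both near the shares of all genes. Ltbp2 (-2.03) was the 1 gene over 4-fold lower in re-adherent than in adherent cells, and with median scaling none was.

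The genes most like each member past 4-fold were those at the smallest Euclidean distance over the differences of both steps, among 13474 genes well above background on the 3 arrays. For Thbs1 they included Fscn1 at a distance of 0.025 and Bmp6 at 0.099. For Tnc they were Tpm1 at 0.055, Tmem47 at 0.105 and Tspan2 at 0.141. These 2 members had 6 genes each within a distance of 0.2.

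For Spp1 the nearest were Dhrs9 at 0.024, P2rx7 at 0.034 and Adap2 at 0.053, and they included Tmem141 at 0.061 and Lrch4 at 0.064 for Tgfbi and Tenm4 at 0.087 and Tlr8 at 0.128 for Tnxb. Within 0.2 there were 48 genes for Spp1, 24 for Tgfbi and 9 for Tnxb. All these distances lie below the technical error of 0.20, so their order carries no weight, and 3 arrays are few points on which to call patterns alike.

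By RefSeq on GRCm38.p6 the genes lie at chr1:71585473-71653280 (Fn1), chr2:118111876-118127133 (Thbs1), chr3:54359267-54391041 (Postn), chr4:63959785-64047015 (Tnc), chr5:104435111-104441053 (Spp1), chr11:55394159-55420080 (Sparc), chr13:56609586-56639359 (Tgfbi), chr17:14665500-14694262 (Thbs2) and chr17:34660453-34719815 (Tnxb). Thbs2 and Tnxb share chromosome 17, and otherwise the 9 genes are on different chromosomes. Only the transcript carried by a probe is named here, so splice forms of members such as Fn1, Tnc and Postn were not told apart.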

How the data were processed

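Total RNA of 3 culture states was measured on 1-colour Agilent arrays. The deposited scanner files hold background-subtracted processed intensity from Agilent Feature Extraction 10.10.1.1, on a linear scale, and the authors' series matrix holds the same intensity times 1 constant per array (1.52, 1.52 and 1.62). The authors deposited no log2 values, which were computed here. Control spots and 154 to 180 outlier spots per array were left out, no spot was saturated, and log2 signal was reduced by the array's 75th percentile. Probes were named through RefSeq on GRCm38.p6 (21465 of 37881 transcript names matched), and a gene took its brightest probe well above background on at least 1 array. Errors combine the software's spot errors. The normexp alternative used limma 3.58.1 with offset 50 on the median signals, in place of the planned mean signals, with R 4.3.3, Python 3.11.15, numpy 2.4.6 and pandas 2.3.3. The scripts were tested on simulated data. Other alternatives were quantile, median, spike-in (6 of 10 probes) and no scaling, the authors' values, a floor for low signals, 2 filters and 2 probe rules.

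The text names all 9 members, the 3 nearest genes of each member past 4-fold, up to 4 genes past 4-fold per direction and list, and genes a member's result turns on, such as known receptors, family relatives and Col1a1. The members and lists were chosen with earlier results of these data known. A few genes that this rule picks are not reported here, though the counts and medians include them.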

Additional observations from a re-analysis of the deposited data

How the results depend on the processing

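Over 11 alternatives, 234 of 297 member differences stayed within their technical error and 63 moved beyond it, and the sign changed for 2 of the 297, each from a value smaller than 2 technical errors: between the attached states Fn1 was 0.07 with median scaling and Sparc -0.14 with spike-in scaling. Among the 234 are values that could not move. The floor for low signals and the 2 filters left every member unchanged, as each probe was well above background on every array. The 2 probe rules could change only Tnc and Sparc, the members with a second probe. The median of the members in suspension was -0.38 with spike-in scaling. On re-adhesion it was -0.31 with quantile normalisation, -0.46 with no scaling and -0.37 with the authors' values, and between the attached states -0.32, -0.28 with no scaling and -0.45 with spike-in scaling, the first of these with quantile normalisation. At 2-fold the counts of members were 7 on re-adhesion and 1 between the attached states. Spp1 passed 4-fold on re-adhesion under several scalings, with its lowest value at -2.53. Sparc passed 2-fold with its dimmer probe, at -1.06 and 1.29.

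The median of all genes went from -0.07 to -0.33 in suspension and from 0.06 to -0.37 between the attached states with spike-in scaling, and from 0.08 to -0.28 on re-adhesion with no scaling and -0.20 with the authors' values. The share of higher genes among those past 4-fold went from 58.8% to 47.7% in suspension and from 51.4% to 33.3% between the attached states with spike-in scaling, and from 48.5% to 33.2% on re-adhesion with no scaling and 36.0% with the authors' values. Past 2-fold the share went from 53.9% to 39.3% with spike-in scaling in suspension. On re-adhesion it went from 48.9% to 29.8% with no scaling, 34.1% with the authors' values and 38.6% with spike-in scaling, and between the attached states from 49.7% to 28.6%, 35.4% and 17.5% in the same order and 63.8% with normexp. Between those states the share past 4-fold was 39.6% with no scaling. With normexp fewer genes passed 4-fold, 394 lower and 681 higher in suspension in place of 822 and 1172, 426 and 435 on re-adhesion in place of 932 and 878, and 22 and 31 between the attached states in place of 198 and 209. No paired analysis was possible because every state is a single array, and so no replicate could be left out either. The number of arrays limits the precision.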
